A study of Mus musculus with 19 samples.

Results

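The Trem2-Tyrobp and Fc receptor pathway was followed in the CA1 region of the mouse hippocampus through 10 genes, of 48709 genes counted. They were chosen by name as 5 receptors (Trem2, Fcgr1, Fcgr2b, Fcgr3, Fcgr4), 2 adaptors (Tyrobp, Fcer1g) and 3 downstream enzymes (Syk, Plcg2, Inpp5d), and all 10 were detected in every library and tested. RNA was sequenced from male C57B/6J wild-type mice (the strain as spelled in the study's methods) in 19 libraries, each labelled as a separate sample. Young mice of 3 months (young, n = 6) and mice of 16.5 months (old control, n = 6) received a scrambled control oligonucleotide, and a further set of mice of 16.5 months (old anti-miR-mix, n = 7) received a mixture of inhibitors against miR-148a-3p, against miR-146a-5p and against miR-181a-5p. In all 3 groups the oligonucleotides were packed in lipid nanoparticles and injected into both dorsal hippocampi, and by the study's methods mice of these experiments were trained in the water maze. An age difference is therefore read between injected and trained mice, and no untouched tissue was compared.

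Trem2 is a lipid and lipoprotein receptor of microglia, the resident macrophages of the brain, and has no signalling tail of its own. It pairs in the membrane with Tyrobp (DAP12), whose ITAM, a paired tyrosine motif, is phosphorylated by Src-family kinases when the receptor is engaged. The activating receptors for the constant part of immunoglobulin G, Fcgr1, Fcgr3 and Fcgr4, use a related adaptor, the common γ chain Fcer1g. Both adaptors recruit the tyrosine kinase Syk, which switches on phospholipase Plcg2 and calcium release. Fcgr2b carries an inhibitory motif (ITIM) and recruits the inositol phosphatase Inpp5d (SHIP1), which removes the lipid that the kinases downstream of Syk produce. Variants in human TREM2, PLCG2 and INPP5D are associated with the risk of Alzheimer's disease.

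Each inhibitor was complementary to most of its microRNA, the seed (bases 2 to 8) included in whole or in part. It is mainly through the seed that a microRNA pairs with messenger RNA. The mature mouse sequences (RefSeq, GRCm38.p6, seed in capitals) and the inhibitors given in the study's methods (bases pairing with the seed in capitals) are printed together, to show what was blocked and what the sites looked for in the pathway genes should look like.
miR-181a-5p: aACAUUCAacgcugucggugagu
inhibitor of miR-181a-5p: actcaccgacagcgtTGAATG
miR-146a-5p: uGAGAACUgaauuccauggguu
inhibitor of miR-146a-5p: acccatggaattcAGTTCTC
miR-148a-3p: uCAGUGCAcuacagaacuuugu
inhibitor of miR-148a-3p: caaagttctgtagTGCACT
scrambled control: taacacgtctatacgccca
The miR-181a-5p sequence comes from chr1:137966468-137966490 and chr2:38852741-38852763, both on the plus strand, the miR-146a-5p sequence from chr11:43374435-43374456 on the minus strand, and the miR-148a-3p sequence from chr6:51269829-51269850 on the minus strand. The inhibitor of miR-146a-5p covered all 7 seed bases, and the other two covered 6 each. The longest run of the scrambled control that could pair with any of the 3 microRNAs was 4 bases.

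Matches to these seeds were then looked for in the 3′ untranslated regions (3′UTRs) of the 10 genes. None held the 7-base match to miR-181a-5p (TGAATGT, in 19.2% of 15351 genes with an annotated 3′UTR) or to miR-148a-3p (TGCACTG, in 15.8%), searched on the transcript strand. The match to miR-146a-5p (AGTTCTC, in 13.4% of genes) was present in 3 of 10, namely Fcgr2b, Syk and Inpp5d. Each 7-base match is shown with its surroundings. Shorter seed matches and sites outside the 3′UTR were not searched, so direct binding elsewhere was not examined.
Fcgr2b: tatgtaacaggAGTTCTCaggaagtcaaac
Syk, site nearer the 5′ end: ttccggtgctcAGTTCTCttatctcctttc
Syk, site nearer the 3′ end: tctgagcaagaAGTTCTCtgctgagctcct
Inpp5d: cccaagggctgAGTTCTCcagcctgctatc
In GRCm38 these windows lie at chr1:170959946-170959975 (minus strand, Fcgr2b, in 1 of 4 annotated 3′UTRs), chr13:52643323-52643352 and chr13:52647913-52647942 (plus strand, Syk, in 1 and 2 of 3) and chr1:87720239-87720268 (plus strand, Inpp5d, in 4 of 5). The Fcgr2b match is followed by an A, which gives the longer form of a seed match. Trem2 and both adaptors, whose longest 3′UTRs have at most 342 bases, held no 7-base match to any of the 3 seeds. The lists of predicted targets supplied with the study held Fcgr2b for miR-146a-5p, among 294 names, and no other of the 10 genes for any of the 3 microRNAs.

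The libraries held between 26653511 and 38908947 counted reads, and 19286 genes reaching 5 reads in 50% or more of the libraries were tested together. Old control replicates 5 and 6 were nearly alike, at a chi-square per degree of freedom of 2.18 where the next most similar pair was at 6.10, so that they may hold RNA of 1 animal, in which case old control has 5 mice. Results that rest on old control are also given with both counted as 1 library where that changed a call. Numbers from 1 to 4, recovered from a deposited table and called processing groups here, divided the libraries unevenly, with no old control and 3 old anti-miR-mix libraries in group 3, and results are given with them in the model where that changed a call. The 10 microglia markers (Cx3cr1, P2ry12, Tmem119 and others) summed to 370–449 counts per 1000000 counted reads (CPM) in young, 448–509 in old control and 487–624 in old anti-miR-mix libraries. Markers of CA1 neurons summed to between 725 and 1089 CPM in all libraries, and none of the CA1, dentate and CA3, pan-neuronal, endothelial or blood marker genes passed the threshold in any comparison. In tissue of mixed cells, a change in the number of microglia and a change in RNA per microglial cell cannot be told apart.

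All 10 genes were measured at low to moderate levels, from 8 reads of Fcgr4 in 1 young library to 1359 reads of Tyrobp in 1 old anti-miR-mix library. Per kilobase of the longest protein-coding transcript, Tyrobp was the most abundant member in every group, with group means of 4.61 ± 0.25, 4.94 ± 0.15 and 5.68 ± 0.25 on the log2 CPM per kilobase scale (SD) for the 6 young, 6 old control and 7 treated mice in turn. The second adaptor, Fcer1g, and Trem2 stood next and could not be ordered, since they differed by 0.03, 0.03 and 0.11 in the 3 groups, less than the SD among libraries. Fcgr3, a low-affinity activating receptor, came below them, and the phosphatase Inpp5d below Fcgr3. Fcgr1, the high-affinity receptor, and Fcgr2b, the inhibitory one, were within 0.06 of each other in old control and 0.02 in old anti-miR-mix libraries, again inside the spread. Fcgr4 was lowest in all 3 groups, at −1.01 ± 1.05, −0.50 ± 0.66 and 0.26 ± 0.57, and in old anti-miR-mix it was not separated from Syk beyond the spread. Of the enzymes at the lower end, Syk (0.62 ± 0.13) and Plcg2 (0.40 ± 0.25) could not be separated beyond the spread in young libraries, whereas Plcg2 lay above Syk in 6 of 6 old control libraries, by 0.31 ± 0.07 (SD). When all annotated exons were used as the length, Trem2 fell below Fcgr3 in every group, because its merged exons cover 4946 bases against 1088 for the longest coding transcript, so its place relative to Fcer1g and Fcgr3 depends on which transcripts were made. The place of Syk depended on the length as well. With all annotated exons it stood at −0.18 ± 0.13 below Plcg2 (0.40 ± 0.25) in young libraries, and in old anti-miR-mix it was lowest, at −0.01 ± 0.22, not separated from Fcgr4 beyond the spread.

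**Figure D1:**
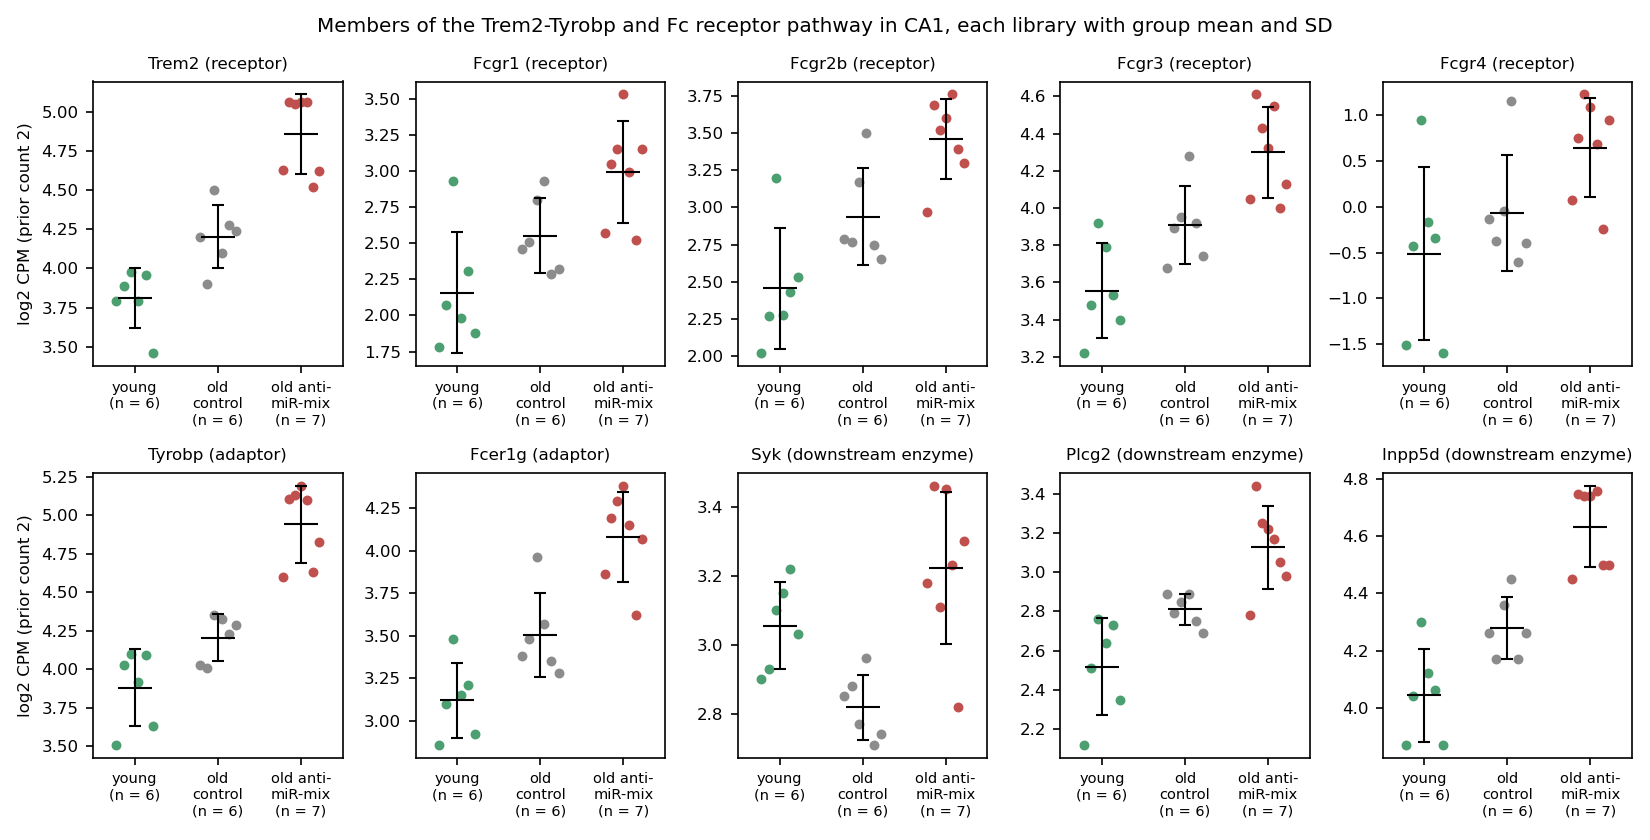
Log2 CPM (prior count of 2) of the 10 genes in the 3 groups of mice, 1 point a library, with the group mean as a horizontal line and the SD as a bar; each panel has its own axis. Trem2, Tyrobp and Inpp5d of all 7 old anti-miR-mix libraries lie above all 6 old control libraries, and Syk is the panel in which old control is lowest.

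Age alone was examined by comparing old control with young mice. None of the 10 genes passed the threshold of 0.05 for adjusted p (edgeR quasi-likelihood test, Benjamini-Hochberg over all genes), where 2.55% of all tested genes did in either direction. A total of 8 had an unadjusted p under 0.05, against 17.8% of all genes, and 9 of 10 were fitted higher in old control, with a median log2 fold change of 0.34 against 0.01 over all genes. None separated the groups completely, as 2.54% of all genes did. DESeq2, run on the same comparison, called 1 member, Trem2, with an adjusted p of 0.0202. Over all genes it called 418 higher and 496 lower.

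Among the receptors, Trem2 came nearest to the threshold. Its log2 CPM ran from 3.46 to 3.98 in young libraries (median 3.84) and from 3.90 to 4.50 in old control (median 4.22). All but 1 of the 6 old control libraries were above every young library, and the fitted fold was 1.32 (95% confidence interval 1.11 to 1.56, adjusted p = 0.0794 by edgeR). The Fc receptors were fitted 0.33 to 0.47 higher on the log2 scale, with adjusted p between 0.169 and 0.740 in the same fit. Young replicate 3 lay among the old libraries for several of them, at 2.93 for Fcgr1, 3.20 for Fcgr2b and 0.95 for Fcgr4, where the other 5 young libraries were at most 2.31, 2.53 and −0.16. Without that library, Fcgr2b passed the threshold (adjusted p = 0.0371 by edgeR), and so did the phosphatase Inpp5d (0.0447).

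The adaptors moved in parallel with the receptors in the fit but did not pass the test. Tyrobp ran from 3.51 to 4.10 (median 3.97) in young and from 4.01 to 4.35 (median 4.26) in old control libraries, and its fitted log2 difference was 0.32 ± 0.12 (SE, edgeR adjusted p = 0.173). Fcer1g ran from 2.86 to 3.48 (median 3.12) and from 3.28 to 3.96 (median 3.43), with a fitted log2 difference of 0.39 ± 0.13 (SE, edgeR adjusted p = 0.129). The groups overlapped for both.

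The enzymes did not share one direction in the fit. Syk was the only member fitted lower in old control, with 2.90 to 3.22 (median 3.07) in young and 2.71 to 2.96 (median 2.81) in old control libraries and a fitted log2 difference of −0.24 ± 0.09 (SE, edgeR adjusted p = 0.156). All but 1 of the 6 old control libraries lay below every young library. Plcg2 was fitted 0.28 higher (adjusted p = 0.168) and Inpp5d 0.23 higher (adjusted p = 0.114). With the processing groups as a factor, 5 members passed the threshold and all 5 were higher in old control, in a fit where 239 genes of all tested were called higher and 124 lower. They were Trem2 (adjusted p = 0.0301), Fcgr3 (0.0106), Tyrobp (0.00577), Fcer1g (0.0105) and Inpp5d (0.00544). The age call for these genes therefore depends on that term.

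Whether blocking the 3 microRNAs changed the pathway was examined among the mice of 16.5 months, inhibitor-treated against control. Of the 10 genes, 5 rose and none fell, where 0.576% of all tested genes rose. These were Trem2, Tyrobp, Fcer1g, Syk and Inpp5d, at 1.29-fold to 1.69-fold. All 10 were fitted higher, with a median log2 fold change of 0.49 against 0.00 over all genes. The groups did not overlap for 3 genes, Trem2, Tyrobp and Inpp5d, where 0.425% of all genes were completely higher. Summed over a role, receptors took 42.7 to 57.4 CPM in old control and 55.8 to 80.3 in old anti-miR-mix libraries, adaptors 26.6 to 35.8 and 36.9 to 57.1, and enzymes 31.0 to 36.8 and 37.6 to 48.6, so that the sums of adaptors and of enzymes did not overlap. By role, 1 of 5 receptors, 2 of 2 adaptors and 2 of 3 enzymes passed, with median log2 fold changes of 0.51, 0.67 and 0.36. The old control libraries entered both comparisons, as the group set against young for age and as the reference for treatment. The values of the age and treatment comparisons are therefore not independent of each other.

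Trem2 and its adaptor had the largest fitted changes among the members called. Trem2 ran from 3.90 to 4.50 log2 CPM in old control and from 4.52 to 5.06 in old anti-miR-mix libraries (median 5.05), a fold of 1.59 (95% confidence interval 1.35 to 1.87, adjusted p = 0.0105 by edgeR). Tyrobp ran from 4.01 to 4.35 and from 4.60 to 5.19 (median 5.10), a fold of 1.69 (1.43 to 1.99, adjusted p = 0.00783). In both genes replicates 2, 3, 4 and 5 of old anti-miR-mix lay close together above 5.0 log2 CPM, and replicates 1, 6 and 7 lay lower but still above every old control library. Replicates 3, 4 and 5 were the old anti-miR-mix libraries of processing group 3, which held no old control library. Fcer1g rose by 0.58 on the log2 scale (0.32 to 0.85, adjusted p = 0.0394), from 3.28–3.96 (median 3.43) to 3.62–4.38 (median 4.15), and 5 of 7 old anti-miR-mix libraries lay above all old controls.

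Of the 4 Fc receptors none passed the threshold in this comparison, although 3 of them had an unadjusted p under 0.05. Fcgr2b, the inhibitory receptor with the miR-146a-5p match, ran from 2.65 to 3.50 (median 2.78) in old control and from 2.97 to 3.76 (median 3.52) in old anti-miR-mix libraries, with a fitted log2 difference of 0.51 ± 0.18 (SE, edgeR adjusted p = 0.270). Old control replicate 4 had the highest value of its group for Fcgr1, Fcgr2b, Fcgr3 and Fcgr4, at 2.93, 3.50, 4.28 and 1.16. Fcgr1 and Fcgr3 were fitted 0.46 and 0.40 higher (adjusted p = 0.365 and 0.206). Fcgr4, with 19 to 89 reads in the old libraries, was fitted 0.69 higher with a 95% confidence interval from −0.11 to 1.49, so that a change of the size seen for Trem2 could not be distinguished from none at this depth.

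Of the enzymes, Syk and Inpp5d rose and Plcg2 did not pass. Syk ran from 2.71 to 2.96 in old control and from 2.82 to 3.46 (median 3.23) in old anti-miR-mix libraries, a fold of 1.34 (1.18 to 1.52, adjusted p = 0.0265 by edgeR), with 6 of 7 libraries above every old control. Inpp5d ran from 4.17 to 4.45 (median 4.26) and from 4.45 to 4.76 (median 4.74), a fold of 1.29 (1.16 to 1.43, adjusted p = 0.0258), with no overlap. Plcg2 was fitted 0.33 higher (adjusted p = 0.162), and its lowest value, 2.78 in old anti-miR-mix replicate 1, was inside the old control range; without that library it passed (adjusted p = 0.0488).

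These calls differed in how far they held. Tyrobp passed under all 26 alternatives tried for this comparison, with adjusted p of at most 0.0327, and Trem2 under 24 of 26. Fcer1g, Syk and Inpp5d passed under 10, 13 and 15 of 26, and each was lost when old control replicates 5 and 6 were counted as 1 library (adjusted p = 0.112, 0.0800 and 0.0630), where Trem2 (0.0326) and Tyrobp (0.0230) passed. Leaving out any of old control replicates 1, 2, 5 and 6 or old anti-miR-mix replicates 2, 3, 4 and 5 likewise left only Trem2 and Tyrobp past the threshold. With the processing groups as a factor only Tyrobp passed (log2 fold change 0.59, adjusted p = 0.00399), while Trem2 was at 0.53 (adjusted p = 0.105). Calls over all genes fell too, from 111 to 8 with that factor and to 23 with old control replicates 5 and 6 counted as 1 library. Within processing groups shared by both groups of mice (4 old anti-miR-mix and 6 old control libraries), Trem2 was 0.47, Tyrobp 0.55, Fcer1g 0.36, Syk 0.34 and Inpp5d 0.24 log2 units higher. Each was at an unadjusted p of 0.0185 in a two-sided exact permutation test, the smallest p that the 54 arrangements allow. Fcgr1, which was not called, reached the same p with a difference of 0.19. Old control replicates 5 and 6 entered this test as separate libraries. Markers of blood-borne myeloid cells were also higher in the fit. The summed CPM of monocyte and neutrophil markers (Ccr2, Ly6c2, Plac8, S100a8, S100a9, Ly6g, Chil3) ran from 0.472 to 4.54 in old control and from 2.54 to 10.8 in old anti-miR-mix libraries, all 5 tested markers were fitted higher with none past the threshold, and Ly6g was at 0 reads in 16 of 19 libraries. Border macrophage markers summed to 5.87–7.54 CPM in old control and 5.32–12.02 in old anti-miR-mix libraries, with 0 of 7 past the threshold, and lymphocyte markers to 1.42–2.26 and 1.66–3.67, with 0 of 5. The part of these cells in the rise of the members was not tested.

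Old anti-miR-mix mice were also compared directly with young mice. Of the 10 genes 8 were higher and none lower, where 4.53% of all tested genes were higher, and 6 genes did not overlap between the groups (Trem2, Fcgr3, Tyrobp, Fcer1g, Plcg2 and Inpp5d), where 1.79% of all genes were completely higher. Trem2 was 2.09-fold higher (95% confidence interval 1.77 to 2.46, adjusted p = 1.61e-05 by edgeR) and Tyrobp 2.10-fold (1.77 to 2.48, adjusted p = 1.84e-05). The second adaptor, Fcer1g, was 1.96-fold higher (1.63 to 2.36, adjusted p = 0.000107). The Fc receptors Fcgr1, Fcgr2b and Fcgr3 were 1.77-fold, 1.97-fold and 1.67-fold higher (adjusted p = 0.0108, 0.00211 and 0.000992 by edgeR), and of the enzymes Plcg2 and Inpp5d were higher by 0.61 and 0.59 on the log2 scale (adjusted p = 0.000570 and 3.43e-05). These 8 calls held under all 26 alternatives. Fcgr4 was fitted 1.02 log2 units higher but ranged from −1.60 to 0.95 in young and from −0.24 to 1.23 in old anti-miR-mix libraries, and did not pass (adjusted p = 0.145); without young replicate 3 it did (adjusted p = 0.0181). Some markers of other cells were past the threshold by edgeR in the same comparison, each of them higher. Of 5 monocyte and neutrophil markers, these were Ccr2 (1.43, adjusted p = 0.0455), S100a8 (2.26, 0.0463) and S100a9 (2.84, 0.0436). Trac (0.73, 0.0330) passed among 5 lymphocyte markers, and Ms4a7 (1.25) among 7 border macrophage markers. All 5 monocyte and neutrophil markers and 4 of 5 lymphocyte markers were fitted higher. Of the border macrophage markers 3 were fitted higher and 4 lower, with a median log2 fold change of −0.25. The 3 lists summed to 0.719–3.70, 0.951–2.16 and 5.20–13.8 CPM in young libraries and to 2.54–10.8, 1.66–3.67 and 5.32–12.02 CPM in old anti-miR-mix libraries. Their part in the difference of the members was not tested. Syk was at 0.18 ± 0.09 (SE, adjusted p = 0.269), with a 95% confidence interval from just under 0 to 0.35. Median log2 fold changes were 0.98 for receptors, 1.02 for adaptors and 0.59 for enzymes, against 0.00 over all genes.

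**Figure D2:**
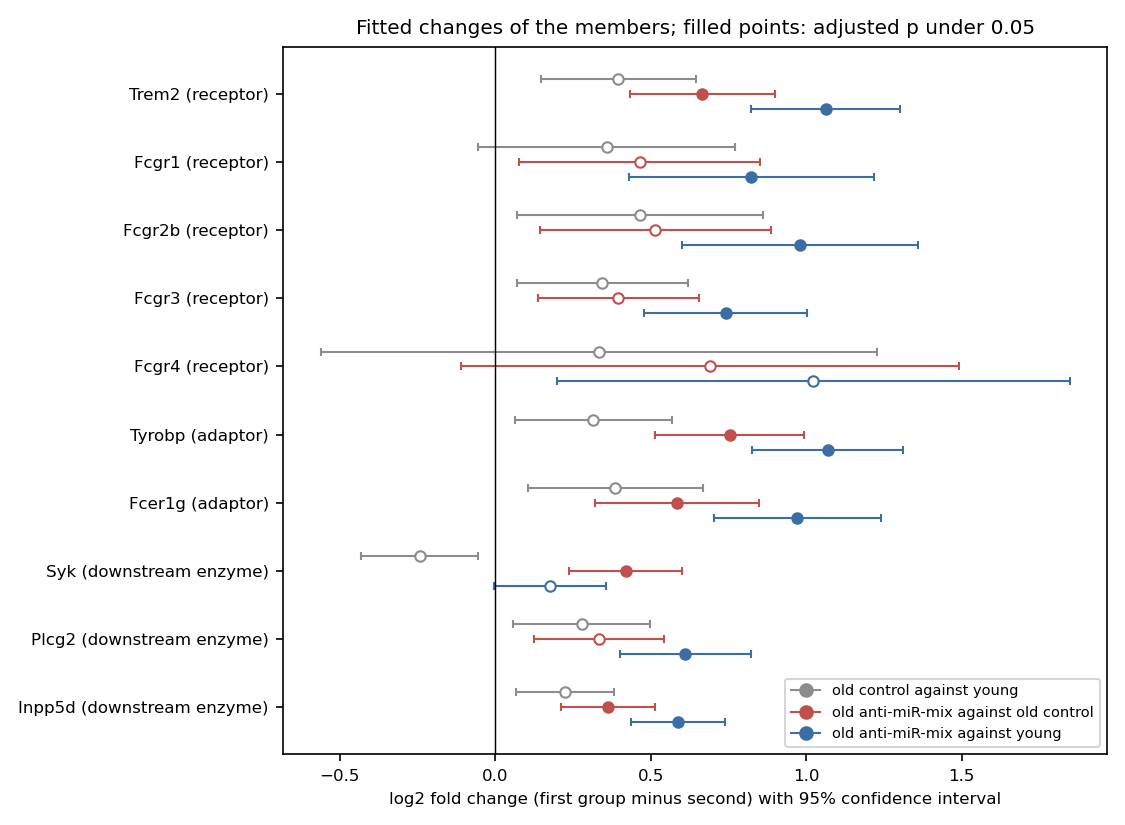
Fitted log2 fold changes (x axis) of the 10 genes with 95% confidence intervals in the 3 comparisons; filled points had an adjusted p under 0.05 in the edgeR fit of all genes. No age point is filled, 5 points are filled for old anti-miR-mix against old control and 8 for old anti-miR-mix against young, and Syk is the gene whose age point lies below 0.

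To ask whether genes of the pathway changed by different amounts, 7 ratios of pairs were formed within each library and compared in 21 two-sided exact permutation tests, adjusted together. A total of 4 passed, and all of them set an enzyme against Syk. The log2 ratio of Plcg2 to Syk averaged −0.54 ± 0.16 among young mice (SD, n = 6), −0.01 ± 0.07 among old control mice (SD, n = 6) and −0.09 ± 0.24 among treated mice (SD, n = 7). Every old control library exceeded every young library, at −0.09 to 0.09 against −0.78 to −0.35. The difference of 0.53 had an exact permutation p of 0.00217, the smallest that 924 arrangements allow, and an adjusted p of 0.0152. The old anti-miR-mix libraries differed from young by 0.44 (adjusted permutation p = 0.0184) and from old control by −0.09 (adjusted permutation p = 0.635).

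The phosphatase was set against the kinase in the same way. The log2 ratio of Inpp5d to Syk was 0.99 ± 0.14 in young, 1.46 ± 0.11 in old control and 1.41 ± 0.20 in old anti-miR-mix (SD, n = 6, 6 and 7), with differences from young of 0.47 and 0.42 (adjusted permutation p = 0.0152 for both) and no overlap between young (0.85 to 1.20) and old control (1.29 to 1.59). Both ratios share Syk as the denominator and are not separate evidence. Within processing groups the 2 ratios were 0.59 and 0.51 higher in old control than in young (exact permutation p = 0.0185, the smallest that 54 arrangements allow), but there none of the 21 tests passed after adjustment. The call held with old control replicates 5 and 6 counted as 1 library (Plcg2/Syk log2 ratio difference, old control against young, 0.53, adjusted permutation p = 0.0152).

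No difference between Trem2 and its adaptor was detected, and no Fc receptor was set against Fcer1g. The log2 ratio of Trem2 to Tyrobp was −0.07 ± 0.17 in young, 0.00 ± 0.16 in old control and −0.08 ± 0.08 in old anti-miR-mix (SD), with differences between groups of 0.07, −0.08 and −0.02 and adjusted permutation p of at least 0.524. Young replicate 1, at 0.28, had more Trem2 for its Tyrobp than the other 5 young libraries, which lay between −0.17 and −0.12. The ratio of the 2 adaptors, Fcer1g to Tyrobp, was −0.76 ± 0.12, −0.70 ± 0.23 and −0.86 ± 0.10 (SD), and its largest difference was −0.16 between old anti-miR-mix and old control (adjusted permutation p = 0.376). Activating receptors were set against the inhibitory Fcgr2b. Fcgr3 to Fcgr2b went from 1.10 ± 0.27 in young through 0.97 ± 0.18 to 0.84 ± 0.15 in old anti-miR-mix (SD), with an exact permutation p of 0.0507 for the outer groups and 0.213 after adjustment. Fcgr1 and Fcgr4 to Fcgr2b differed by at most 0.19 between groups (adjusted permutation p of at least 0.524).

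**Figure D3:**
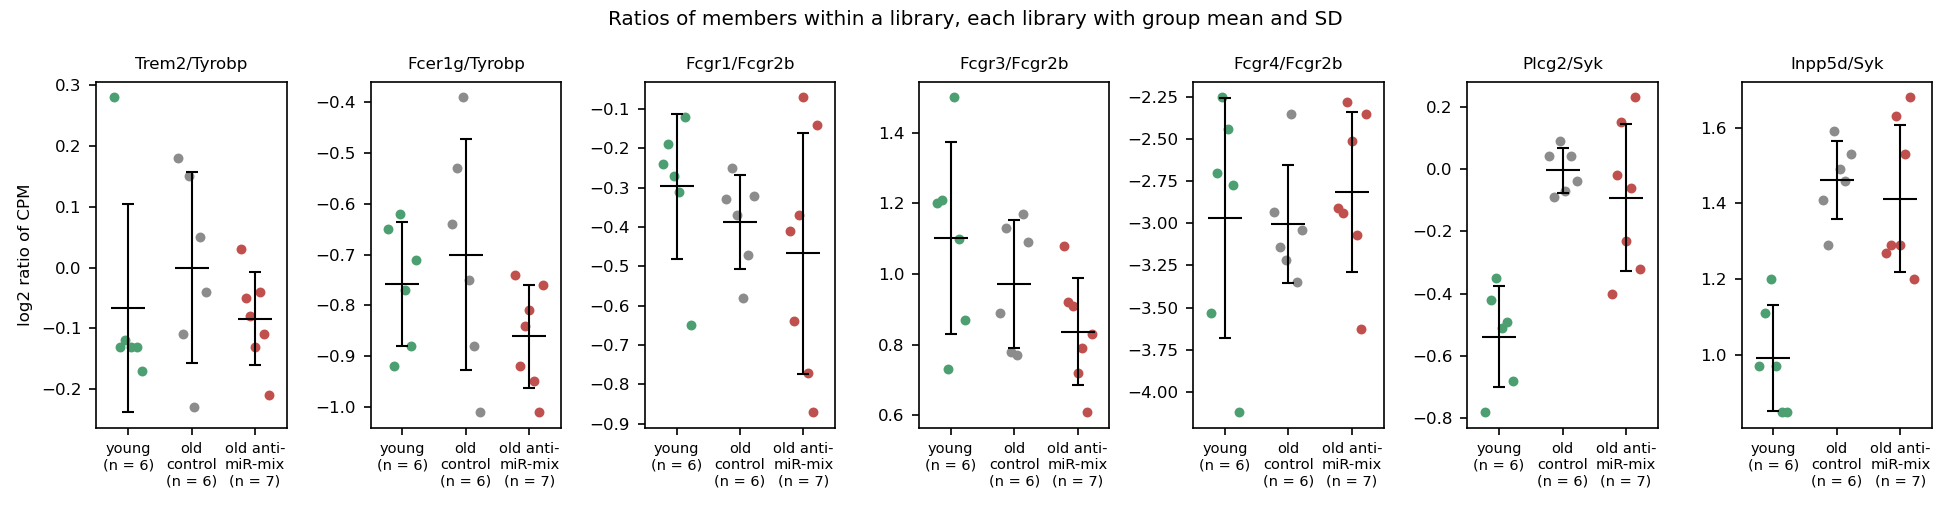
Log2 ratios of CPM of 2 genes within a library (y axis, own scale in each panel), 1 point a library, with group mean and SD. Plcg2/Syk and Inpp5d/Syk are the panels in which all 6 old control points lie above all 6 young points; in the other 5 panels the groups overlap.

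The members were next set against the resident microglia of the same library, by subtraction of the mean log2 CPM of the 10 microglia markers. Those markers were themselves fitted higher in each comparison, by a median of 0.20 with age, 0.19 with treatment and 0.41 between the outer groups, and 3, 2 and 9 of 10 passed the threshold. Of 30 two-sided exact permutation tests, adjusted together, 12 passed. Against old control, the old anti-miR-mix libraries were higher for Tyrobp by 0.54 (−0.48 ± 0.18 against −1.02 ± 0.12, SD, n = 7 and 6, adjusted permutation p = 0.0105) and for Trem2 by 0.46 (−0.56 ± 0.18 against −1.02 ± 0.18, adjusted permutation p = 0.0105). Tyrobp did not overlap between these groups, and Trem2 of 6 of 7 libraries lay above every old control. Fcer1g was 0.38 higher (adjusted permutation p = 0.0366) and Inpp5d 0.16 higher (0.0272), and for all 4 an alternative ended the call, with adjusted permutation p up to 0.0556 for Tyrobp, 0.0897 for Trem2, 0.0852 for Fcer1g and 0.123 for Inpp5d. For Tyrobp and Trem2 this was the test within processing groups, where no treatment difference relative to the markers passed. There Tyrobp was 0.43 and Trem2 0.35 higher. The exact permutation p of Tyrobp, 0.0185, was the smallest that 54 arrangements allow. Passing after adjustment over 30 tests was hardly possible at that limit, so no conclusion is drawn from it. Syk, which rose in the plain comparison, was 0.21 higher (adjusted permutation p = 0.129) once the markers were subtracted.

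Relative to the markers, 7 members were higher in old anti-miR-mix than in young libraries. The difference between the groups was 0.65 for Tyrobp, 0.63 for Trem2 and 0.55 for Fcer1g (adjusted permutation p = 0.0105 for each). It was 0.59 for Fcgr2b (0.0219), 0.33 for Fcgr3 (0.0332), 0.20 for Plcg2 (0.0466) and 0.17 for Inpp5d (0.0200). Between old control and young, Syk alone passed. It was lower by 0.46 relative to the markers, at −2.41 ± 0.12 against −1.96 ± 0.12 (SD, n = 6 each, adjusted permutation p = 0.0108), and all 6 old control libraries lay below all young ones. Part of that difference is the markers' own fitted rise, a median of 0.20. Without subtraction, Syk was fitted at −0.24 (edgeR adjusted p = 0.156). Syk also followed the marker mean only weakly from library to library (r = 0.16, group means removed). For the other 9 members the age difference relative to the markers was between 0.01 and 0.27, with adjusted permutation p between 0.123 and 0.814. Young replicate 3 again mattered, since without it Fcgr1, Fcgr2b and Fcer1g passed for age (adjusted permutation p = 0.0354, 0.0458 and 0.0406). Among all alternatives, the lowest adjusted permutation p of Trem2 for age was 0.0332. Within processing groups 5 of 30 tests passed, all of them between old anti-miR-mix and young. In that comparison 180 arrangements allow an exact permutation p down to 0.00556.

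**Figure D4:**
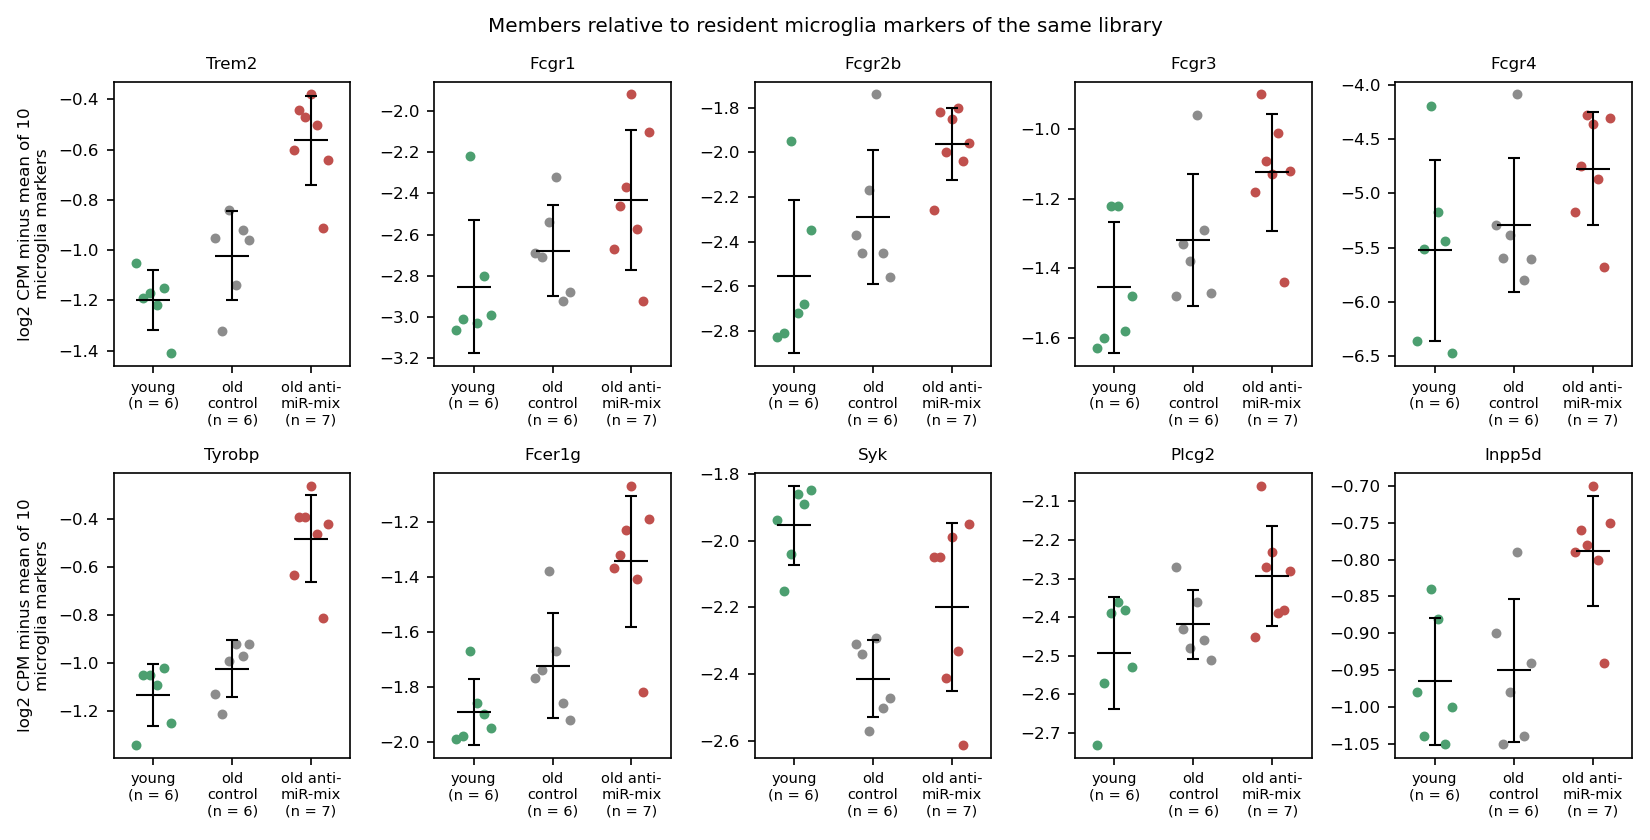
Log2 CPM of each gene minus the mean log2 CPM of 10 microglia markers in the same library (y axis, own scale in each panel), 1 point a library, with group mean and SD. Tyrobp of the old anti-miR-mix libraries lies above all old control libraries, and Syk of the old control libraries lies below all young libraries.

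Members with and without a miR-146a-5p seed match could be compared within the treatment contrast only as a description. The 3 with a match (Fcgr2b, Syk, Inpp5d) had a median log2 fold change of 0.42 (0.36 to 0.51, 2 of 3 called) and the 7 without had 0.58 (0.33 to 0.75, 3 of 7 called). The genes that rose most among those called, Tyrobp and Trem2, held no 7-base match to any of the 3 seeds in their 3′UTRs, and shorter matches were not searched.

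Promoters were searched for GAGGAA on either strand, the core of the sites used by PU.1, the transcription factor that defines the macrophage lineage. RefSeq promoters (250 bases before to 50 after a gene's start, GRCm38.p6) were given for 9 of the 10 genes, Tyrobp being the exception. The motif was present in 6 of 9 members (66.7%) and in 31.3% of 27025 promoters of all genes. A match before the gene's start is shown for 5 of these genes, 3 receptors and 2 enzymes, with the motif or its reverse complement in capitals.
Trem2: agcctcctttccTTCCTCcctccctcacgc
Fcgr3: gagtccatttccTTCCTCtttttgtagttc
Fcgr1: atggcaacttccTTCCTCttttctaatctt
Syk: tgctgacactttGAGGAAaagccacttccc
Inpp5d: ggtttctataatGAGGAAgttctgtgcagc
These windows lie at chr17:48346349-48346378, chr1:171059392-171059421 (minus strand), chr3:96294007-96294036 (minus strand), chr13:52596861-52596890 and chr1:87620280-87620309, with the motif 40, 6, 55, 9 and 20 bases before the RefSeq start of the gene. Fcgr4 held it 22 bases before its start, and Inpp5d a further copy 4 bases after. Fcgr2b, Fcer1g and Plcg2 had no match in this window. A match of 6 letters is a description of the sequence and not a measured binding site.

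The neighbourhood of the pathway was described through lists of its other genes. On the ligand side, 4 of 8 immunoglobulin genes could be tested. Igkc, the κ light chain made by plasma cells, had 1 to 33 reads in young, 55 to 131 in old control and 25 to 236 in old anti-miR-mix libraries, and both old groups were above young (adjusted p = 0.0102 and 0.00105 by edgeR). The old groups did not pass the threshold against each other for any of the 4 tested. Too low to be tested were Ighg1, with 0 to 1 reads in old control and 0 to 76 in old anti-miR-mix libraries, and Ighg2b (0 to 3 and 0 to 138). The same held for Ighg3 (0 to 2 and 0 to 1) and Igha (0 to 13 and 0 to 63). Ighm was 0.80 higher in old anti-miR-mix than in young (adjusted p = 0.00716 by edgeR). Among 7 ligands, sheddases and modulators of Trem2, Apoe, a lipoprotein that Trem2 binds, was 0.32 higher in old anti-miR-mix than in old control (adjusted p = 0.0433 by edgeR) and 0.54 higher than in young, together with Ms4a6d (1.19) and Ms4a7 (1.25). Ms4a7 also counts among markers of border macrophages.

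Receptors that signal through the same motifs followed. Of 10 tested ITAM-coupled receptors, 3 rose with treatment (Cd300lb, Itgb2 by 0.86 and Cd300c2 by 0.65 log2 units) and 8 were higher than in young, led by Cd300lb, Clec7a (2.84, a receptor for β-glucan) and Itgb2 (1.33, the β2 integrin chain). Cd300lb was counted at 0 to 3 reads in young, 1 to 5 in old control and 9 to 28 in old anti-miR-mix libraries, so its fold is not given. Of 11 tested ITIM receptors, 3 rose with treatment (Cd22 by 1.37, Cd300a by 0.81 and Lair1 by 0.35) and 10 were higher than in young, led by Cd22 (2.23), Cd300lf (1.99) and Clec12a (1.60). None of either list passed for age.

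The kinases, effectors and restraints were read in the same way. Of 8 Src-family kinases and their regulators, Fgr (1.52) and the phosphatase Ptprc (0.78) rose with treatment, Fgr (2.47), Ptprc (1.21) and, named after its value was seen, Lyn (0.54) were higher than in young, and Fyn, which neurons also express, was lower in old control (−0.15) and in old anti-miR-mix (−0.14) than in young. Of 23 downstream adaptors and effectors, Vav1 (0.51) and Pik3r5 (0.36) rose with treatment, Pik3cg (0.38) and Gab2 (0.21) rose with age, and 12 were higher in old anti-miR-mix than in young, led by Lat2 (1.15), Rac2 (1.02) and Btk (0.93). Of 10 restraints of ITAM signalling, none passed with treatment, Inppl1, the relative of Inpp5d found in many tissues, was lower in old control than in young (−0.28), and the phosphatase Ptpn6 (1.00) and Dok1 (0.58) were higher in old anti-miR-mix than in young. Medians over the 7 lists for treatment ran from 0.08 for restraints to 0.81 for ITIM receptors, against 0.00 over all genes. With the processing groups as a factor, or with old control replicates 5 and 6 counted as 1 library, 1 gene of the 7 lists passed for treatment, Cd300lb (adjusted p = 0.0205 and 0.0185 by edgeR), where 11 had passed.

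**Figure D5:**
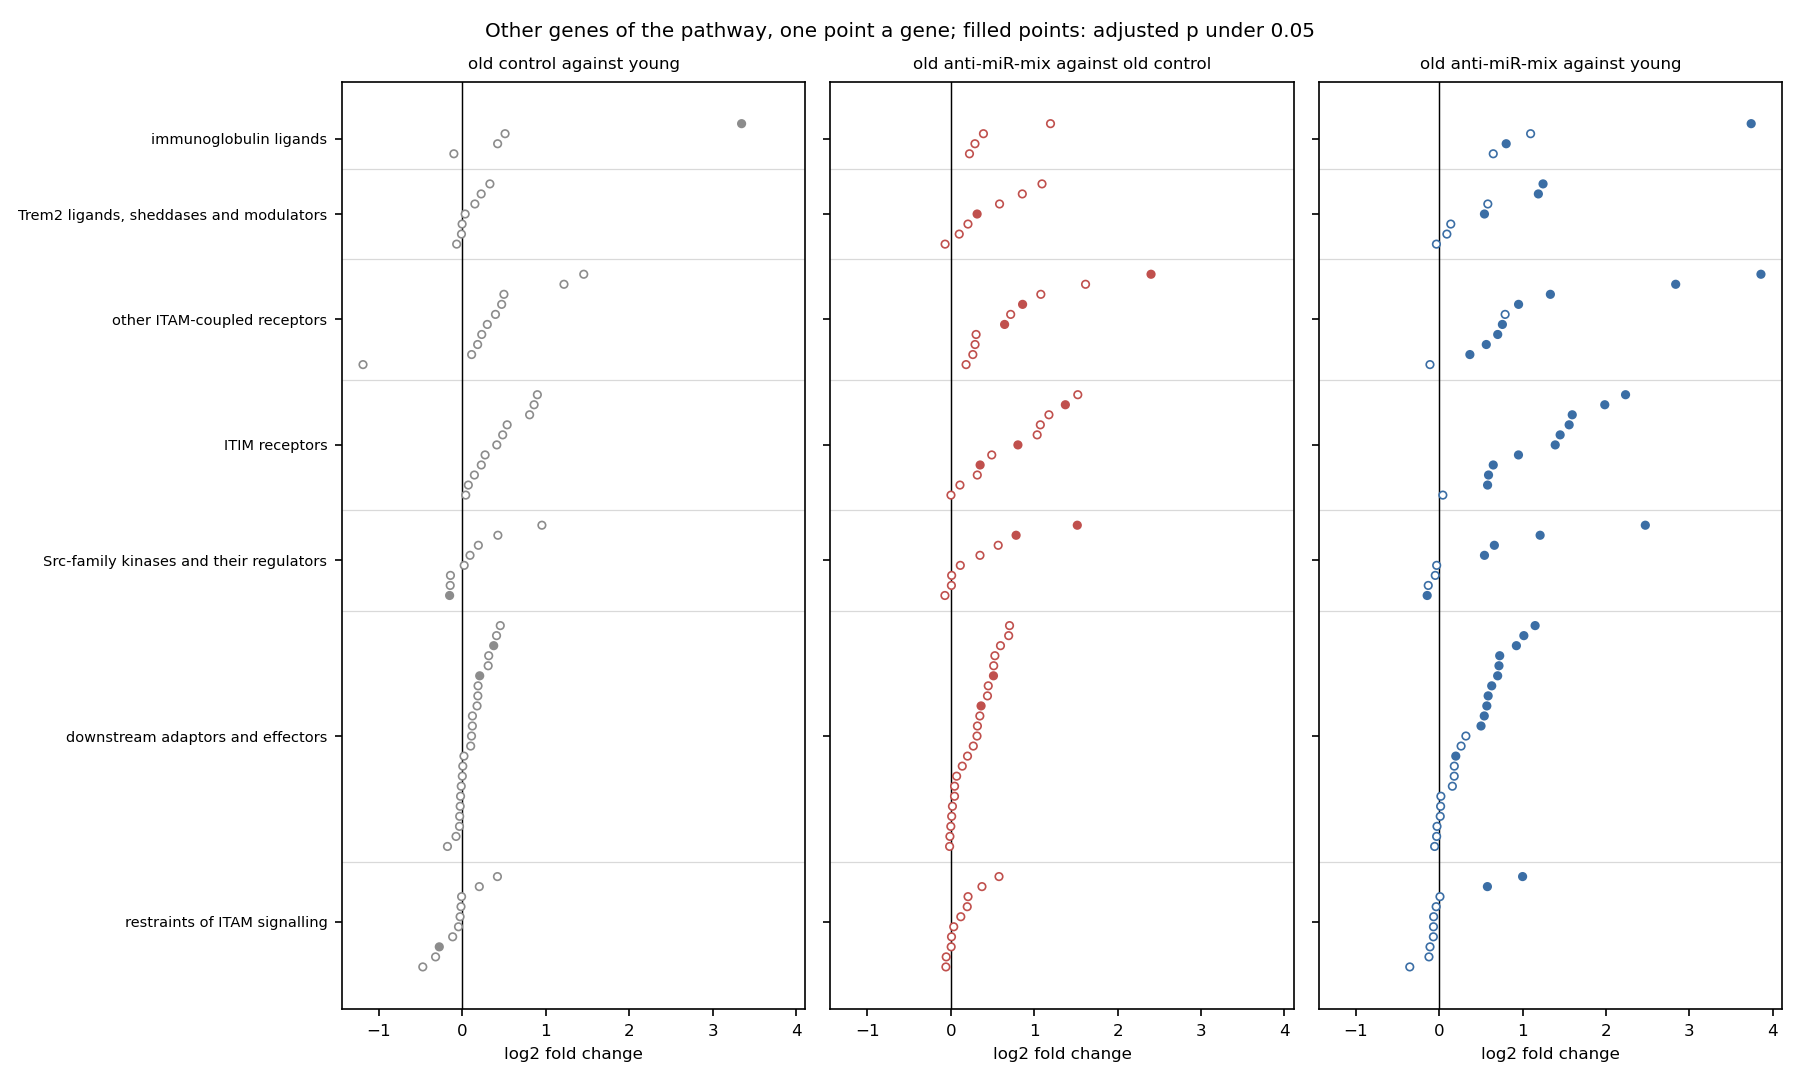
Log2 fold changes (x axis) of the other tested genes of the pathway in the 3 comparisons, 1 point a gene, grouped by list and ordered by size within a list; filled points had an adjusted p under 0.05 in the edgeR fit of all genes. Filled points are most frequent among ITAM-coupled and ITIM receptors in old anti-miR-mix against young, at 8 of 10 and 10 of 11.

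Finally, genes whose levels followed single members from library to library were listed, after group means were removed, by Pearson's r over the 19 libraries among 15959 genes. These values describe libraries that share tissue, depth and makeup. Nearest to Trem2 were Cd300c2 (r = 0.90), Itgb5 (0.87) and Fblim1 (0.85), and its own adaptor Tyrobp stood at place 15 (r = 0.80). Fcgr2b was followed most closely by Gcnt1 (0.88), Ctsc (0.86) and Prkcd (0.85), and Fcer1g by Ptpn6, Lcp1 and Cd52 (0.91 each). Syk stood apart from the other members. Its nearest genes were Itgal (0.88), Gab1 (0.87) and Sv2c (0.87), and its r with the mean of the microglia markers was 0.16, where the other 9 members had 0.55 to 0.81. Among members, r with Syk ran from 0.30 for Trem2 to 0.60 for Fcgr1.

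Several features of the counts bear on single genes. Fcgr2b, Fcgr3 and Fcgr4 lie within one stretch of chromosome 1 (GRCm38, from 170958617 to 171064935), are similar in sequence, and could exchange reads depending on how reads with several matches were counted, which was not stated. Fcgr2b overlaps Gm38204 and Plcg2 overlaps Gm27361 on the opposite strand, and the library kit does not mark strand, so reads inside these overlaps cannot be told apart. Fcgr3 overlaps Mir6546 and Fcgr4 overlaps Gm26110 on the same strand. Trem2 (ENSMUSG00000023992) lies at chr17:48346401-48354147 on the plus strand, Tyrobp (ENSMUSG00000030579) at chr7:30413760-30417585 on the plus strand, Syk (ENSMUSG00000021457) at chr13:52583173-52648792 on the plus strand and Inpp5d (ENSMUSG00000026288) at chr1:87620312-87720507 on the plus strand, and these overlap no other annotated gene.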

How the data were processed

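CA1 RNA of 19 mice was sequenced by the authors as single-end reads from a TruSeq polyadenylated RNA library and, per the study's methods and the submitters' processing notes, aligned to mm10 with STAR 2.5.2b and counted with featureCounts (Subread 1.5.1). The deposited files held raw counts per Ensembl gene for each library, and a further deposited table of log2 values, which equalled log2(CPM + 1) minus a gene-wise slope multiplied by one of 4 library numbers, with deviations of at most 3.4e-08; these numbers served as processing groups, and their origin is not described. Columns without an assigned library numbered 0.

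Symbols (48349 of 48709 IDs) came from GENCODE M21. Genes reaching 5 reads in 50% or more of the libraries were tested by edgeR 4.0.16 (TMM, robust quasi-likelihood, R 4.3.3) over all 19 libraries, with Benjamini-Hochberg adjustment at 0.05. Log2 CPM used a prior count of 2. Single values were compared by exact permutation tests. DESeq2 1.42.0, limma 3.58.1 and other settings were alternatives. The fit was tested on simulated data. Members and lists were chosen with earlier results of these data known. Named were all members and, per list and comparison, up to 3 called genes by size of change; for 4 members, the 3 genes of highest correlation; 1 gene met by this rule is not reported here. The labels number the replicates without naming animals, so p-values measure the spread between these samples.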

Additional observations from a re-analysis of the deposited data

Results flagged for a closer look

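In 6 of 81 groups of values of the members, their ratios and their levels relative to microglia markers, a single library lay far from the rest of its group by Dixon's test, which chance gives in about 1 of 20 groups. Trem2 of young replicate 6 was the lowest of its group at 3.46 log2 CPM, against 3.79 for the nearest library. Fcgr4 of old control replicate 4 was the highest of its group at 1.16 log2 CPM, where the next was at −0.05, and it stayed the highest relative to the microglia markers, at −4.09 against −5.29. The log2 ratio of Trem2 to Tyrobp in young replicate 1 was 0.28 against −0.12 for the nearest library. In young replicate 6 the log2 ratio of Fcgr1 to Fcgr2b was −0.65 against −0.31. Fcgr1 relative to the microglia markers was −2.22 in young replicate 3 against −2.80 for the nearest young library.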

How the results depend on the processing

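The number of members past the threshold for old control against young, 0 of 10, became 1 with DESeq2 and 1 with only the compared groups in the fit, 5 with the processing groups as a factor, 4 with that factor and old control replicates 5 and 6 counted as 1 library, and 0 to 2 with single libraries left out. For old anti-miR-mix against old control, 5 of 10 became 3 with only the compared groups in the fit, 1 with the processing groups as a factor, 2 with old control replicates 5 and 6 counted as 1 library, 1 with both, and 2 to 6 with single libraries left out. In that comparison Fcer1g was also lost without the read filter (adjusted p = 0.0836 by edgeR). The same held with the processing groups as a linear term (0.0591). For old anti-miR-mix against young, 8 of 10 became 8 to 9 with single libraries left out. The 4 ratio tests past the threshold stayed at 4 with any library left out and became 0 within processing groups. The 12 of 30 tests past it for members relative to microglia markers became 5 within processing groups and 8 to 17 with single libraries left out. No called value changed sign in any alternative. A replicate block on the numbers in the labels gave 5, 6 and 9 members for the 3 comparisons. Over all genes, it called 252 higher for old anti-miR-mix against old control, where the main fit called 111. Same-numbered libraries correlated between −0.170 and 0.214, and 7 of 18 correlated best with their own number. Whether the numbers pair the libraries is not settled by these values. The cause of these shifts was not tested. A fit without robust estimation, chosen after seeing the data, called the same number of members.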
